A study of Saccharomyces cerevisiae with 2 samples.

Results

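SUC2 and ADH2 are classic glucose-repressed genes of budding yeast (Saccharomyces cerevisiae). The nucleosomes over their promoters and reading frames were examined in wild-type cells and in cells without FUN30, which encodes an ATP-dependent chromatin remodelling enzyme. The genes were given by name, as 2 of the 6021 protein-coding genes in the gene table. Their nucleosomes were taken as every call with a centre from 36000 to 40000 on chromosome 9 for SUC2 and from 872500 to 876000 on chromosome 13 for ADH2. These windows held 39 of the 48019 wild-type calls and 36 of the 48132 fun30 deletion calls on chromosomes 1 to 16. At SUC2 there were 21 wild-type and 19 mutant calls, and at ADH2 there were 18 and 17.

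The study sequenced DNA of single nucleosomes, released with micrococcal nuclease from crude nuclei of paraformaldehyde-fixed cells, in 1 library per genotype. Both strains were BY4741, a standard haploid laboratory strain: one is labelled wild type and the other fun30D. BY4741 lacks the marker genes HIS3, LEU2, MET15 and URA3, which the libraries therefore share as a background. The labels list no treatment, and both strains grew at 30°C in YPD, a rich medium that contains glucose, a condition in which both genes are known to be repressed; their expression was not measured in these libraries. Each call has a centre, a width in bp and an occupancy, a signal of unstated scale. Neither genotype has a replicate, so no test between them was made, and effects of genotype, culture, digestion and library preparation cannot be told apart.

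SUC2 (YIL162W) encodes invertase, which splits sucrose. ADH2 (YMR303C) encodes the alcohol dehydrogenase that consumes ethanol once glucose is gone. In glucose the SUC2 promoter is held off by the repressor Mig1 with the corepressor Cyc8-Tup1, and its activation needs the Snf1 kinase and the SWI/SNF remodelling complex. ADH2 is switched on by the activators Adr1 and Cat8, and its repressed promoter is known for positioned nucleosomes on either side of the Adr1 site, one of them over the TATA box. Both promoters are textbook cases in which nucleosomes are rearranged on activation.

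Where the genes lie is known here only to the nearest 0.1 kb. SUC2 occupies about 37.4 to 39.0 kb on chromosome 9 and is read to higher coordinates. ADH2 occupies about 873.3 to 874.3 kb on chromosome 13 and is read to lower coordinates. No source used here names the build of the files, which was compared with assembly R64. The calls around gene starts were displaced from R64 by -369.5 bp on chromosome 11, so the files are on another build. For the 60 genes nearest to SUC2 the displacement was -24 bp, and for the 60 nearest to ADH2 it was -17 bp, against -15 bp on all chromosomes but 10 and 11. Distances from a gene start below are therefore approximate. They are negative before the start and positive in the direction of reading, whereas all centres are coordinates of the files. Calls are named by gene part from their centres: upstream of the start, in the gene, or downstream.

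The targeted gene was looked at first. On chromosome 1, where the gene lies, 18 consecutive wild-type calls from 115011 to 117922 had no partner, and the deletion library had 0 calls between them.

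The SUC2 promoter was nearly free of calls in both libraries. In wild type the last nucleosome before it was centred at 36774, at -626 bp, with an occupancy of 0.551. The next was centred at 37430, at about 30 bp into the gene, with an occupancy of 0.193, a distance smaller than the rounding of the start. The centres were 656 bp apart and 546 bp of DNA between the calls was uncovered. Only 4.38% of distances between neighbouring calls of that library were longer. In the deletion library the flanking calls were centred at 36773 and 37454, and a weak additional call was centred at 37041, at -359 bp. That call had an occupancy of 0.0950, and 6.62% of the calls of its library were weaker. The lowest occupancy in the files is 0.0824 in both libraries, so a nucleosome below that value would not be in either list. The mutant call was 130 bp wide and left uncovered stretches of 146.5 bp before it and 275 bp after it.

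The strongest nucleosomes of the SUC2 window lay upstream of this stretch and kept their places. The call at 36602 in wild type was at 36599 in the deletion library, with occupancies of 0.850 and 0.756. The call at 36774 was at 36773, with occupancies of 0.551 and 0.787. These were the highest 2 occupancies of the window in either library, and their order was reversed in the deletion library. The neighbouring gene on that side is YIL163C, which by its locus tag is read in the opposite direction to SUC2. Farther out, the weaker call at 36228 was at 36291 in the deletion library, a displacement of 63 bp, which only 1.06% of all pairs exceeded. Upstream calls without a partner were centred at 36502 in wild type and at 36399 without FUN30, and their occupancies, 0.0835 and 0.0920, were both near the lowest deposited value.

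At the start of SUC2 the libraries differed in how many calls they placed, but not in the promoter-facing edge. Wild type had overlapping calls at 37430, 95 bp wide, and at 37522, 127 bp wide, with occupancies of 0.193 and 0.406. The deletion library had 1 call there, at 37454, which was 146 bp wide with an occupancy of 0.258. The centres 37430 and 37454 were paired, 24 bp apart, and the call at 37522 had no partner. The edge facing the promoter was at 37382.5 in wild type and at 37381 without FUN30, 1.5 bp apart, so the displacement of the centre came with the wider mutant call. The nucleosome after these was at 37623 in wild type and 37624 without FUN30, with occupancies of 0.521 and 0.494, the highest within the gene in each library.

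**Figure D1:**
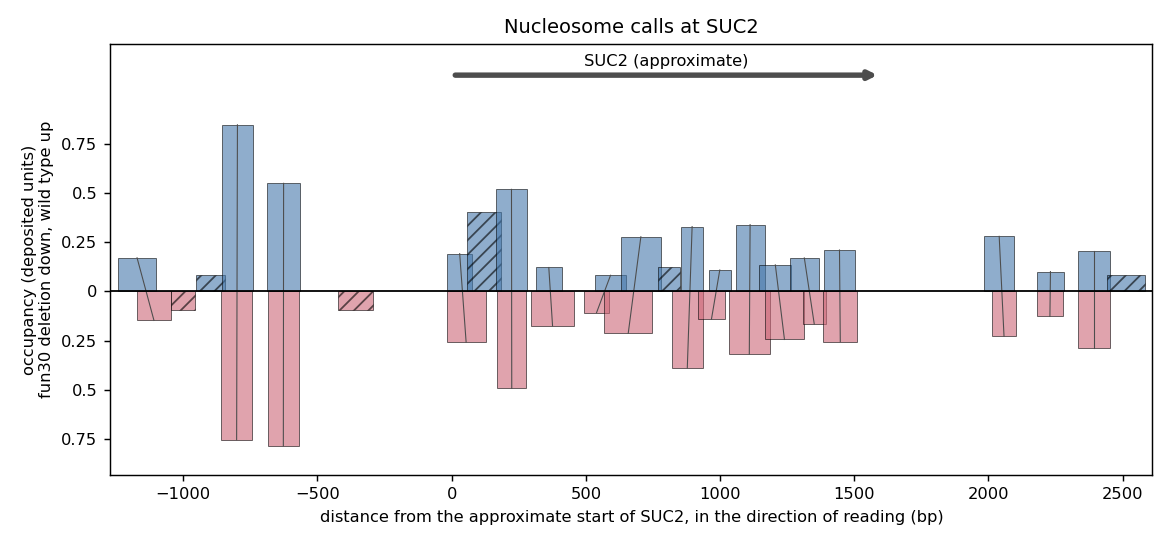
Nucleosome calls at SUC2 by distance from the approximate gene start (bp). Each box is 1 call with its width, its height is the occupancy in deposited units (wild type up, fun30 deletion down), lines join paired centres and hatched boxes have no partner. The promoter holds no wild-type call and 1 weak mutant call at -359 bp, and the longest slants are at the outermost upstream pair and in the middle of the gene.

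Calls were paired when each was the nearest to the other and their centres were at most 73 bp apart, and a pair counted as shifted at 20 bp or more. By this rule 26.6% of all 40794 pairs were shifted. In the SUC2 window 7 of 17 pairs were shifted, or 41.2%, with an exact 95% interval of 18.4 to 67.1% that covers counting error over calls only and includes the value over all pairs. The median distance between paired centres was 18 bp, against 9 bp over all pairs, and 7 of the 17 pairs (41.2%) were at most 5 bp apart, against 37.9% of all pairs. Among calls above their library's median occupancy the median distance was 3 bp over 9 SUC2 pairs and 5 bp over all such pairs. The larger median distance at SUC2 thus rests on the weaker calls. The shifted share was 2 of the 9 SUC2 pairs (22.2%) against 15.6% of all such pairs, but this excess rests on a pair that the filter itself created. The filter removed the wild-type call at 37430. The mutant call at 37454 was then paired with the wild-type call at 37522, 68 bp away, a shifted pair absent without the filter. With that pair set aside the SUC2 share does not exceed 15.6%. Weak calls were shifted more often across the genome: when all pairs were ranked into 10 classes by mean occupancy, 45.8% were shifted in the weakest class and 4.26% in the strongest. The classes to which the 17 pairs belong had a mean shifted share of 27.9%. On chromosome 9 as a whole the share was 23.97%.

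Within the SUC2 reading frame 6 of 11 pairs were shifted, 3 in the direction of reading and 3 against it. The shifts against it lay next to each other in the middle of the gene, if a pair displaced by less is included. The call at 37992 in wild type was at 37940 in the deletion library, and the call at 38105 was at 38058, displacements of -52 and -47 bp. The call at 38296 moved by -18 bp and the call at 38399 by -31 bp. Towards the end of the gene the direction was the opposite, by 34 bp at 38606 and by 37 bp at 38714. Between these stretches the call at 38512 was 3 bp from its partner, and the last call of the gene, at 38845, was also 3 bp from its partner. Of the 6 shifted pairs, 5 had a wild-type occupancy below the library's median of 0.210. The shifted pair with the highest wild-type occupancy was that at 38105, with 0.279 in wild type and 0.213 without FUN30, and the pair at 37992 had 0.0826 and 0.108.

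The reading frame of SUC2 was crowded with calls, more so in wild type. It held 13 wild-type calls and 11 mutant calls. Among 7495 stretches of the same 1600 bp laid end to end along the chromosomes, the median was 7 calls in either library. As many calls as at SUC2 or more were found in 0.187% of stretches in wild type and in 3.84% in the deletion library. Neighbouring wild-type centres in the gene were a median of 106.5 bp apart; that is shorter than the DNA wrapped in 1 nucleosome, and such neighbours cannot both be occupied on 1 DNA molecule. The median was 136 bp in the deletion library, which is also shorter than that length of DNA, so the same holds for many neighbours there. Coverage of the gene by calls was nevertheless close, at 80.6% in wild type and 82.9% without FUN30, and DNA under more than 1 call made up 6.06% and 4.31%. The summed occupancy of the gene was 3.03 in wild type and 2.76 without FUN30, above the medians of 1.66 and 1.67 in stretches of this length.

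Spacing in the gene accordingly differed, by an amount that depends on the limits and on the calls used. Distances from 140 to below 190 bp were taken as regular, and they made up 29.3% of all distances in wild type and 31.5% without FUN30. Distances below 140 bp made up 30.9% and 29.7%. In SUC2, 0 of 12 wild-type distances were regular and 11 were shorter. Without FUN30, 4 of 10 were regular and 5 were shorter. The first 3 mutant distances from the start were 170, 152 and 164 bp, where wild type had 92, 101, 139 and then 230 bp. The share of 0 of 12 allows up to 26.5% by the exact 95% interval, and the share in the deletion library has an interval of 12.2 to 73.8%. These intervals overlap. With the 2 wild-type calls of the gene that had no partner left out (at 37522 and 38210), 0 of 10 wild-type distances were regular. Some of these 10 lay just outside the range, such as that of 139 bp, so this count depends on the limits chosen. With all calls and a range of 130 to below 200 bp, 2 of 12 wild-type and 5 of 10 mutant distances were regular. Leaving out the call at 37522 merges the distances of 92 and 101 bp, and leaving out that at 38210 merges those of 105 and 86 bp. Both merged distances lie just above the main range and inside the wider one. Together these settings therefore bring the libraries closer than either setting alone, and little of the difference in regular spacing remains.

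Call width within SUC2 also differed. In the SUC2 gene 8 of 11 pairs had the wider call in the deletion library, where 47.6% of all pairs did. Elsewhere this was not so: the deletion call was wider in 0 of 3 pairs upstream of SUC2, in 1 of 3 downstream and in 3 of 16 at ADH2, where it was narrower in 10. The median width over the SUC2 window was 116 bp in both libraries. In the gene it was 110 bp in wild type and 126 bp without FUN30. The largest differences were at 37762, with 97 bp in wild type and 161 bp without FUN30, and at the start call, with 95 and 146 bp. The call at 38058 in the deletion library was 179 bp wide, and 0.264% of mutant calls were wider.

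Occupancy at SUC2 differed little in total. None of its 17 pairs differed by 2-fold or more, and 4.87% of all pairs did. The log2 ratio of the deletion to the wild-type library ran from -0.39 at 38105 to 0.85 at 38606, with a median of 0.28 over the window. It was above 0 in 10 pairs and below 0 in 7, and 50.5% of all pairs were above 0. Summed over the window the occupancy was 5.35 in wild type and 5.29 without FUN30, a log2 ratio of -0.02. Over 2916 windows of the same length the SD of this ratio was 0.20. The positive median of the pairs and the slightly negative ratio of the sums differ in sign, and wild type had 4 calls without a partner and the deletion library 2. Among calls above the median occupancy of their library the median log2 ratio was -0.09 over 9 pairs, so its sign rests on the weak calls.

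Beyond the end of SUC2 both libraries had another long stretch without a call. The last call of the gene and the next one were 595 bp apart in wild type, at 38845 and 39440, and 610 bp apart in the deletion library, at 38848 and 39458. Uncovered DNA between them was 479 and 503 bp. Only 5.69% of wild-type and 5.26% of mutant distances were longer. The next gene in this direction is SMU2, which by its locus tag is read in the same direction as SUC2. The wild-type calls beyond, at 39631 and 39794, had partners at 39629 and 39794, with occupancies of 0.101 and 0.204 against 0.127 and 0.288. A wild-type call at 39911 had an occupancy of 0.0854 and no partner.

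At ADH2 the promoter nucleosomes stood in the same places in both libraries. The nucleosome next upstream of the start was at 874478 in wild type and at 874480 without FUN30, at -178 bp in wild type. The one before it was at 874822 and at 874826, at -522 bp in wild type. The distance between them was 344 bp in wild type and 346 bp without FUN30, and it left 228.5 and 234 bp of uncovered DNA. The first nucleosome within the gene was at 874174 in wild type and at 874179 without FUN30, about 126 and 121 bp from the start. It was separated from the upstream one by 304 and 301 bp from centre to centre, with 196.5 and 199 bp uncovered. The 4 call edges that bound these stretches differed by at most 6.5 bp between the libraries.

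What differed at the ADH2 promoter was occupancy, within the range of most pairs. The nucleosome at 874478 had an occupancy of 0.378 in wild type and 0.248 without FUN30, a log2 ratio of -0.61, and 21.2% of all pairs differed by more in either direction. The first nucleosome of the gene went the same way, with 1.04 in wild type and 0.819 without FUN30, a log2 ratio of -0.35. The nucleosome at 874822 had 0.259 in wild type and 0.346 without FUN30, a log2 ratio of 0.42. No replicate shows how far such values vary between cultures of 1 genotype.

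**Figure D2:**
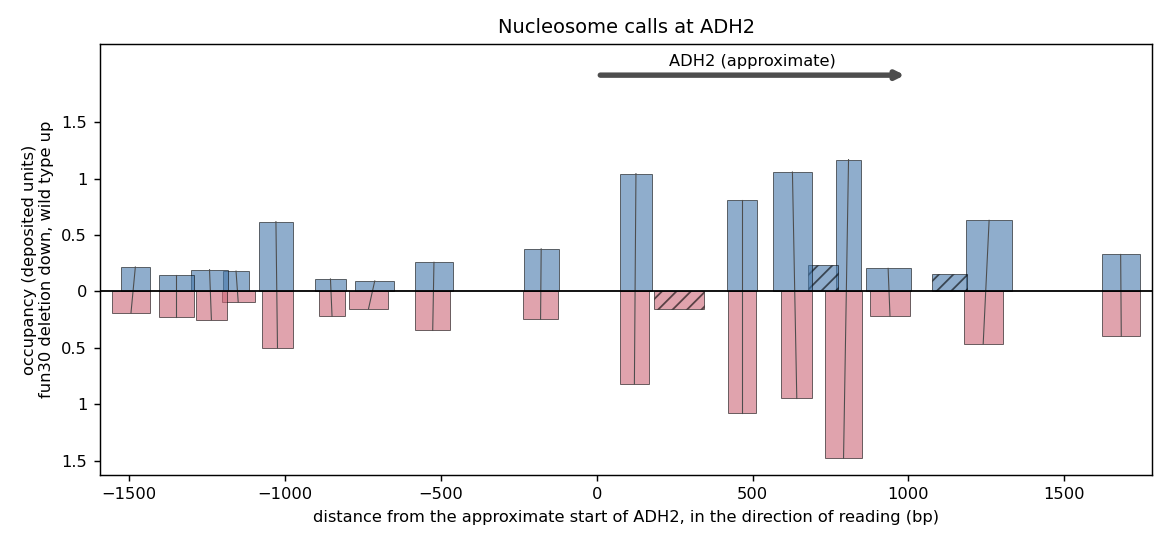
Nucleosome calls at ADH2 by distance from the approximate gene start in the direction of reading (bp). Boxes, heights, lines and hatching are as in the plot of SUC2 calls, with occupancy in deposited units. Joined centres run nearly straight down at the promoter and in the gene, and the hatched mutant call at 263 bp fills the first wide interval of the gene.

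Farther upstream, towards UBP15, 1 call in each library stood above the others. UBP15 is the next gene on that side and by its locus tag is read away from ADH2. Its centre was 875329 in wild type and 875324 without FUN30, with occupancies of 0.619 and 0.500. The only shifted pair of the window was also there, at 875012 in wild type and 875032 without FUN30, with occupancies of 0.0933 and 0.154, and its displacement of 20 bp was just at the threshold. The largest occupancy differences of the window were also on this side. At 875154 wild type had 0.111 and the deletion library 0.219, a log2 ratio of 0.98, and at 875457 the values were 0.181 and 0.0940, a log2 ratio of -0.94. Every one of the 9 wild-type calls upstream of ADH2 had a partner among the 9 mutant calls.

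The reading frame of ADH2 carried some of the stronger nucleosomes of the genome. In wild type the calls at 873492, 873672, 873834 and 874174 had occupancies of 1.17, 1.06, 0.814 and 1.04. From 93.6% to 97.1% of wild-type calls were weaker than these. Their mutant partners, at 873508, 873658, 873834 and 874179, had 1.48, 0.949, 1.07 and 0.819. The summed occupancy over the gene was 4.53 in wild type and 4.69 without FUN30, against a median of 0.985 and 0.996 in stretches of 1000 bp. Higher sums were found in 2.48% and 2.22% of such stretches. Per kb, the sum at SUC2 was 1.89 in wild type and 1.73 without FUN30. ADH2 has a close relative, ADH1, which is strongly expressed in glucose, and no source used here says where reads that match both genes were placed. The occupancies, centres, widths and spacing of calls within the ADH2 reading frame are uncertain to that extent.

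Few pairs were shifted at ADH2. In its window 1 of 16 pairs was shifted, or 6.25%, with an exact 95% interval of 0.158 to 30.2% that includes the 26.6% over all pairs. With a threshold of 10 bp the share was 31.25%, against 49.4% of all pairs. The median distance between paired centres was 5.5 bp, and 8 pairs were at most 5 bp apart, or 50%. The occupancy classes of these pairs had a mean shifted share of 21.3%, lower than for SUC2. On chromosome 13 as a whole 27.8% of pairs were shifted. Within the gene 0 of 5 pairs were shifted, although the pair at 873492 was displaced by 16 bp and the pair at 873672 by 14 bp. In the strongest occupancy class, to which both belong, the upper quartile of the distance was 6 bp. The edges of these pairs at lower coordinates differed by 2 and 0 bp, so both displacements came with a change in call width. The widths were 81 bp in wild type and 117 bp without FUN30 at 873492, and 127 and 99 bp at 873672. The exact intervals of the shifted shares at ADH2 and SUC2 overlap, and calls of 1 library are not replicates, so the genes were not tested against each other.

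**Figure D3:**
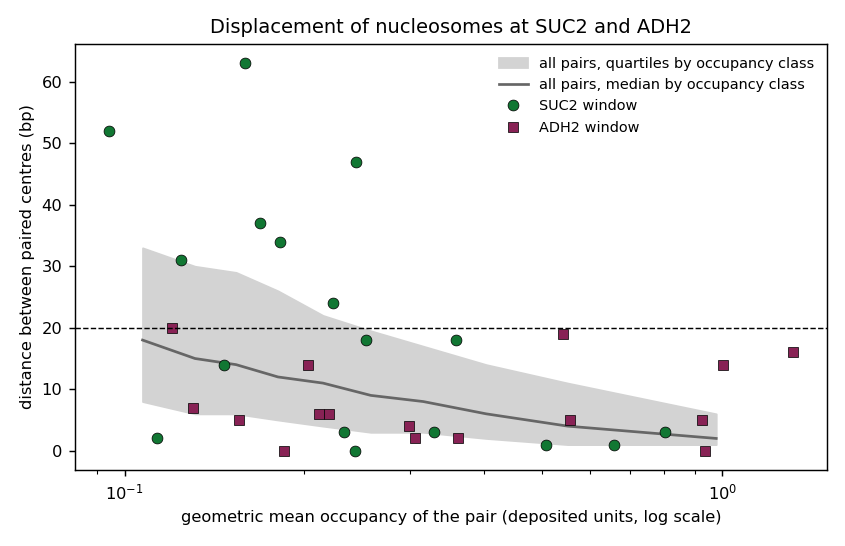
Distance between paired centres (bp) against the geometric mean occupancy of the pair (log scale) for the 17 SUC2 and 16 ADH2 pairs. The line is the median and the shaded band the quartiles of all pairs in 10 occupancy classes, and the dashed line marks 20 bp. Of the SUC2 pairs, 7 lie above the dashed line, and 1 ADH2 pair lies on it.

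The arrangement inside the ADH2 gene differed through calls found in 1 library only. Wild type had a call at 873574, with an occupancy of 0.237, between the strong ones at 873492 and 873672. The nearest call of the deletion library was 66 bp away and was paired with another, and its calls on either side were 150 bp apart. In turn the deletion library had a call at 874037, 161 bp wide with an occupancy of 0.154, where wild type had centres 340 bp apart and 240.5 bp of uncovered DNA. The nearest wild-type call was 137 bp away. From the start, neighbouring centres were 340, 162, 98, 82 and 127 bp apart in wild type and 142, 203, 176, 150 and 149 bp apart without FUN30. Regular distances numbered 1 of 5 in wild type and 4 of 5 without FUN30, with exact 95% intervals of 0.505 to 71.6% and 28.4 to 99.5%. The limit given for the spacing intervals at SUC2 holds for these as well. Without the calls at 873574 and 874037 regular distances numbered 2 of 4 and 3 of 4, so most of the difference in regular spacing rests on those calls. Both libraries had 6 calls in the gene, which covered 62.1% of it in wild type and 68.6% without FUN30.

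**Figure D4:**
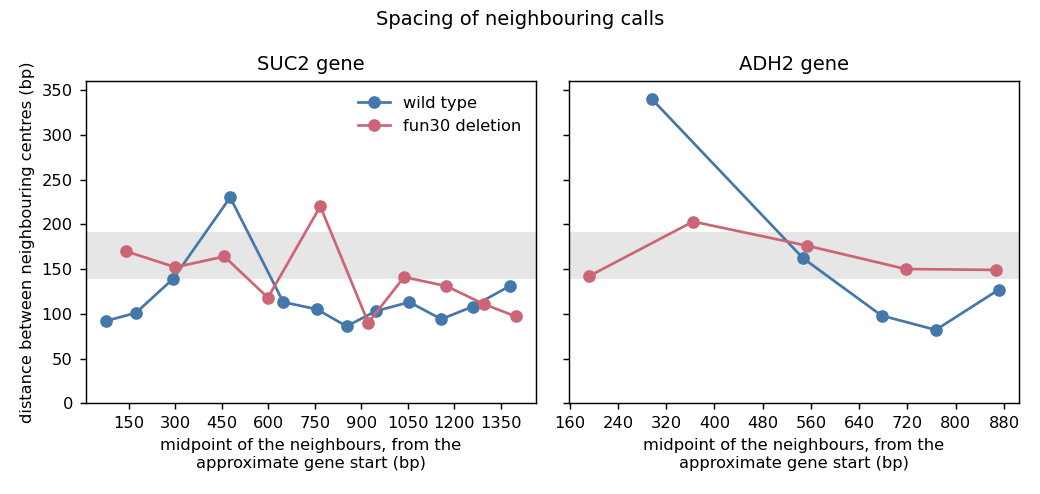
Distance between neighbouring call centres (bp) within SUC2 and ADH2, against the midpoint of the neighbours from the approximate gene start (bp), in wild type and the fun30 deletion library. The grey band marks 140 to below 190 bp. It holds 0 of 12 wild-type and 4 of 10 mutant distances in SUC2, and 1 of 5 and 4 of 5 in ADH2.

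Downstream of ADH2, towards YME2, the libraries again had a wide interval in common. Calls at 872619 and 873041 were 422 bp apart in wild type, and their partners at 872617 and 873060 were 443 bp apart in the deletion library. Wild type had a further call at 873168, with an occupancy of 0.155 and no partner. The calls downstream summed to 1.11 in wild type with this call and to 0.861 in the deletion library. The call at 873041 also had a lower occupancy in the deletion library, 0.465 against 0.631. Over the whole ADH2 window the sums were 7.84 in wild type and 7.78 without FUN30, a log2 ratio of -0.01, and 0 of 16 pairs differed by 2-fold or more. The SD of this ratio over 3323 windows of the same length was 0.23.

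Taken as a profile along the DNA, with each call a box of its width and occupancy, the libraries were about as alike at both genes as elsewhere. The correlation between the libraries over positions was r = 0.80 over 4001 bp at SUC2 and r = 0.80 over 3501 bp at ADH2. Over all windows of these lengths the median was 0.82 in each case. Positions under 1 call share its width and occupancy, so these values are descriptions. DNA covered by a call in either library was covered in both over 65.5% of its length at SUC2 and 75.5% at ADH2. Calls without a partner made up 4 of 21 wild-type and 2 of 19 mutant calls at SUC2, and 2 of 18 and 1 of 17 at ADH2, where 15% of all wild-type and 15.2% of all mutant calls had none.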

How the data were processed

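The authors deposited 1 list of nucleosome calls per library, each with its centre, its width and an occupancy signal, per the file headers. The submitters' processing notes name Bowtie 0.12.7. No source used here names the build, the caller, its settings or the scaling of the deposited occupancy signal. That signal is not a read count, its distribution over calls was nearly identical in both files (median 0.210 in each), and the depth is unknown. Sums therefore compare places along the genome, not totals.

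Calls on chromosomes 1 to 16 were paired as mutual nearest neighbours at most 73 bp apart with Python 3.11.15, numpy 2.4.6 and pandas 2.3.3, and exact intervals came from scipy 1.17.1. The pairing was tested on simulated data. The simulated wild-type calls did not overlap, so pairing among calls as crowded as those in SUC2 was not tested. Background shares are over all pairs, all distances between neighbours, or windows laid end to end. The genes, windows and settings were chosen with earlier results of these data known. Gene positions from R64 were used only to test the build, and names, order and locus tags to name neighbours. Every call of both windows enters, so no rule picked among them. Other glucose-repressed genes were not located, because the gene table is on another build, and no promoter sequence was used here.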

Additional observations from a re-analysis of the deposited data

How the results depend on the processing

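Of 46 alternative values, 40 moved by less than the spread set for them: the exact interval of a share, the order-statistic interval of a median, the SD over windows for sums, or 1.5 times for call numbers. Of the other 6, 4 were shares of shifted pairs, and 2 were medians at SUC2 that reached the limit of their interval among calls above the median occupancy. There the median displacement fell from 18 to 3 bp and the median log2 ratio changed sign, from 0.28 to -0.095. The median log2 ratio at ADH2 also changed sign there, from 0.18 to -0.16, within its interval. At SUC2 the share of 41.2% became 17.6% for shifts of 40 bp or more. At ADH2 the share of 6.25% became 31.25% with a threshold of 10 bp, 0% with one of 40 bp, and 0% among calls above the median occupancy. Over all pairs these shares were 49.4% for 10 bp, 8.31% for 40 bp and 15.6% above the median occupancy. The moves with the threshold follow from its construction; for the filter on occupancy the only shifted pair at ADH2 is weak. With pairing up to 50 bp, 5 of 15 pairs were shifted at SUC2, and with pairing up to 100 bp, 7 of 17. Above the median occupancy 2 of 9 were, 1 of them a pair formed only through the filter. Regular spacing, its settings and the left-out calls were chosen after the data were seen. The count of 40 does not measure robustness, because some spreads were wide. Moving the window limits by 500 bp changed the window lengths by less than 1.5 times, so call numbers could hardly leave their limit. The wild-type spacing interval at ADH2 ran from 0.505 to 71.6%. No paired analysis was possible because there is 1 library per genotype, and for the same reason no replicate could be left out.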
